A study of Homo sapiens with 95 samples.

Results

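The genes described are those of glycolysis and of the transcriptional response to low oxygen, named in a list of 38 symbols that was looked up in the first column of every count table of the series. The list was found in 37 cases, since PKM2 was not a symbol of the tables and its gene was counted as PKM. A mean count above 1 over the wells compared was required, and 34 genes met it, of 11356 such genes among 23895 listed in all. PFKFB3, a regulator of phosphofructokinase, fell just below with a mean count of 0.976, and ANKRD37, a hypoxia-inducible gene, lay just above with 1.06. CA9, a carbonic anhydrase, had a mean count of 0.28 and EGLN3, an oxygen-sensing hydroxylase, 0.34.

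Glycolysis splits glucose into pyruvate in the cytosol. Glucose transporters and hexokinases supply its upper steps, phosphofructokinase is its main control point, and the steps from GAPDH to pyruvate kinase return ATP. Lactate dehydrogenase interconverts pyruvate and lactate, and monocarboxylate transporters carry lactate across the membrane. When oxygen is scarce, the factor HIF, whose regulated subunit is encoded by HIF1A, escapes hydroxylation by enzymes such as EGLN1 and raises many of these genes, together with VEGFA, NDRG1, BNIP3 and others.

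The counts came from AALE cells, an immortalized human bronchial epithelial line, by 3′ digital gene expression (3′DGE), in which every well carries a barcode and every captured molecule a unique molecular identifier (UMI). Overexpression of NRF2 (gene NFE2L2), FGFR1, NRG1 or PIK3CA was compared with cells that carried a vector for the reporter HcRed, and CRISPR knockout of FAT1 or CDKN2A with cells given a Cas9-EGFP plasmid and no guide, called GFP cells. Each population was exposed to the vehicle DMSO, to cigarette smoke condensate (CSC, 24 µg/ml), to benzo[a]pyrene (BaP, 173 µM), a polycyclic hydrocarbon of smoke that activates the aryl hydrocarbon receptor (AHR), or to the tobacco nitrosamine NNK (490 µM). Of 95 wells, the 82 with a 1-digit replicate number entered the main comparisons, and 25 of their 31 groups held 3 wells. Replicate wells shared 1 population of engineered cells, so p-values measure the spread between wells of that population.

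Library sizes ran from 692446 to 1895735 UMI counts. Their medians were 1426280.5 under DMSO, 1318389 under CSC, 1255412 under BaP and 1171386.5 under NNK. Each chemical occupied its own plate rows, and the well barcodes under BaP and NNK held a mean of 4.74 and 5.0 G or C bases of 6, against 1.0 under DMSO and 1.24 under CSC, so chemical, plate row and barcode cannot be told apart. Each population also kept its place on the plate. All 10 bronchial and basal epithelial markers were detected, with a summed level of 771 to 1718 CPM. Summed levels ran from 0 to 0.773 CPM over 3 ciliated and secretory markers, 0 to 15.8 over 6 fibroblast, 0 to 9.54 over 4 leukocyte and 0 to 5.42 over 4 endothelial markers. DCN, LYZ and PECAM1 had the highest medians of their lists, at 2.36, 3.80 and 1.18 CPM, while FOXJ1, MUC5B, CD3E, CDH5 and VWF had no count in any of the 82 wells. The part of these markers in the results was not tested. The library NRG1 NNK replicate 2 stood apart from its group. Counts of the genes described that passed tests with NRG1 NNK wells are given with and without it. Other values include it unless stated.

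A few enzymes held nearly all of the counts. Values are counts scaled to the well total (CPM), and because 3′DGE counts 1 end of each molecule they are not divided by transcript length. The 34 genes took from 0.849% to 1.33% of a well's counts, with a median of 1.10%. Of this, GAPDH, ENO1, LDHB, LDHA, TPI1, PGK1 and PKM together made up 91.7% to 96.0%. The 91.7% was that of NRG1 NNK replicate 2, and the next lowest was 92.7% in CDKN2A DMSO replicate 2. Over the 82 wells GAPDH, which oxidises glyceraldehyde 3-phosphate, averaged 3022 CPM. ENO1, the main enolase of most cells, averaged 2438 CPM. The lactate dehydrogenase subunits LDHB and LDHA averaged 2145 and 1208 CPM, the triose isomerase TPI1 694 CPM, the phosphoglycerate kinase PGK1 633 CPM and pyruvate kinase PKM 377 CPM. These are levels per molecule counted, and capture may differ between genes.

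The regulators were counted far less often. HIF1A averaged 5.91 CPM and EGLN1 9.49 CPM. The transporters SLC2A1 and SLC2A3 averaged 14.3 and 2.46 CPM, and VEGFA, the vascular growth factor, 4.54 CPM. In all, 9 of the 34 genes had a mean count above 100, 11 had 10 to 100 and 14 had under 10. Across 10 comparisons of 2 populations or of a chemical with DMSO, 19 of the 34 genes passed the test at least once. Of the 15 that never did, 12 had a mean count under 10. The share of all genes that passed at least once was not counted, so the 19 cannot be set against it. SLC2A3 and VEGFA, which did pass, also had a mean count under 10.

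Promoters are shown for TPI1, PGK1 and ENO1, which were higher under both BaP and NNK, and for LDHA, which was lower under BaP. RefSeq start sites matched 29 of the 34 genes, all but SLC2A3, SLC16A1, BNIP3L, VEGFA and NDRG1. A window of 300 bases, 250 before and 50 after the start, was searched on both strands for ACGTG and GCGTG, the cores of hypoxia response elements, of which GCGTG is also the AHR core. ACGTG was found in 37.9% of the 29 matched genes and in 21.4% of all 35116 promoters, GCGTG in 55.2% and 36.5%, and either core in 72.4% and 48.4%. Each matched gene was counted by its first start site only, while the 35116 held every start site listed, several for some genes. The shares are thus in unlike units, and their difference was not tested. The windows are from GRCh38.p14, each written 5′ to 3′ on the gene's strand, and capitals mark the cores or their reverse complements (CACGT and CACGC). They lie at chr12:6867281-6867580 on the plus strand for TPI1, chrX:78103998-78104297 on the plus strand for PGK1, chr1:8878637-8878936 on the minus strand for ENO1, and chr11:18394313-18394612 on the plus strand for LDHA. TPI1 and LDHA had 2 start sites in that table and the first is shown.
TPI1: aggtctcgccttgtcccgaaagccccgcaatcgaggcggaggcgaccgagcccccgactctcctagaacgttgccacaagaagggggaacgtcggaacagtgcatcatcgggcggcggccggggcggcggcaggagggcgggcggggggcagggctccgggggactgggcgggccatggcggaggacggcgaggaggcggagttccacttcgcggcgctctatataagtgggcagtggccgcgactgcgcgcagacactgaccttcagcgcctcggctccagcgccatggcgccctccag
PGK1: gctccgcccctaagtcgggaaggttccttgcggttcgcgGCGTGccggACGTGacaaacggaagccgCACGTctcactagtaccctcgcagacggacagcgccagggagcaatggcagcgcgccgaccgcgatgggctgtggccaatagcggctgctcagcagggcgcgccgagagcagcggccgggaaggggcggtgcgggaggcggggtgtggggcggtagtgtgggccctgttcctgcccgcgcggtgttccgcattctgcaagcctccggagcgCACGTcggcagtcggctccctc
ENO1: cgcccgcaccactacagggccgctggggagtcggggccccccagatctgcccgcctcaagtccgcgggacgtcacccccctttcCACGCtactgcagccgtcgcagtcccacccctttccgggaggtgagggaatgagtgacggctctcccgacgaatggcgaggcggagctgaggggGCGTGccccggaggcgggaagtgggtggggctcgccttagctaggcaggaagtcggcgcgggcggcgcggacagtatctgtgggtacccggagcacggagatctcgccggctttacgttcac
LDHA: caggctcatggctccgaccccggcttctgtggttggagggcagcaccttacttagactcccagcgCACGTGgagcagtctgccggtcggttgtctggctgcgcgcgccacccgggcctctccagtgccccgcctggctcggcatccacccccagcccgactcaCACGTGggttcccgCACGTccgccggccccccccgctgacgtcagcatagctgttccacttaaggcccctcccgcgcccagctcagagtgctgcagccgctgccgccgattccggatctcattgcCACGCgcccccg
The LDHA window held 5 ACGTG readings, counting both strands of each palindromic CACGTG, and 1 GCGTG. PGK1 held 3 and 1, ENO1 held 0 and 2, and TPI1 held neither. A match is a description of the letters and not a measured binding site.

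Differences among the 8 populations were tested first, under DMSO. Of the 34 genes, 21 differed among the populations (limma-voom moderated F, adjusted p under 0.05), or 61.8%, where 39.6% of all genes tested did. All 9 genes with a mean count above 100 passed, in a class where 89.5% of genes passed. The F statistics were highest for GAPDH at 43.8 (adjusted p = 5.67e-29), LDHB at 33.4 (adjusted p = 3.70e-24), LDHA at 31.9 (adjusted p = 2.19e-23) and TPI1 at 28.1 (adjusted p = 2.19e-21).

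LDHA and LDHB, the subunits of lactate dehydrogenase, did not keep the same order across populations. LDHA was highest in PIK3CA cells, at 1709, 1732 and 1801 CPM, and those wells lay above all others. HcRed cells followed at 1439, 1475 and 1540 CPM. The lowest levels were those of FAT1 cells, at 854, 946 and 957 CPM. CDKN2A cells at 979 to 1061 CPM and GFP cells at 1031 to 1094 CPM lay above them and overlapped each other. LDHB was also highest in PIK3CA cells, with a mean of 2451 CPM (SD 89.9, n = 3), but FAT1 cells followed at 2354 CPM (SD 40.7, n = 3), overlapping NRF2 cells at 2333 CPM (SD 63.7, n = 3). The ratio of LDHA to LDHB counts was lowest in FAT1 cells, at 0.391 (SD 0.0273, n = 3), and ran from 0.573 in NRG1 cells to 0.714 in PIK3CA cells in the other populations.

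**Figure D1:**
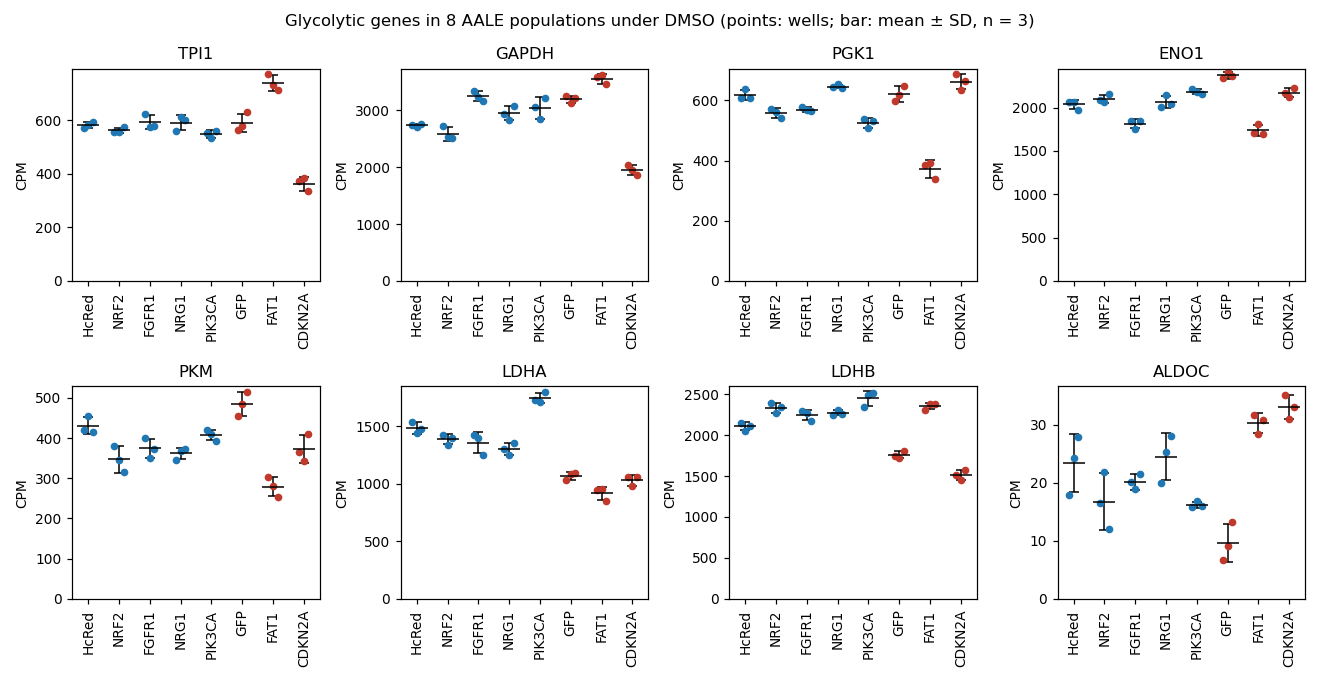
CPM (vertical axes, from 0) of 8 glycolytic genes under DMSO in the overexpression populations and HcRed (blue) and in the knockout populations and GFP (red). Points are wells and bars the mean and SD of 3 wells. TPI1 and GAPDH were lowest in CDKN2A cells and highest in FAT1 cells, while PGK1 and PKM were lowest in FAT1 cells.

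Enzymes from the top to the end of the pathway separated FAT1 from GFP cells, in both directions. FAT1 encodes an atypical cadherin. Of 32 genes tested, 11 passed, or 34.4% where 14.1% of all genes passed. Of these 4 were higher and 7 lower, where 6.39% of all genes were higher and 7.7% lower. Among the 9 with a mean count above 100, 8 passed, where 48.2% of genes of that abundance did. The median log2 fold change of the 32 genes was -0.23, against -0.01 for all genes.

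PGK1 read 385, 391 and 338 CPM in FAT1 wells against 598, 618 and 647 in GFP wells, with no overlap. The log2 fold change was -0.68 (SE 0.07, limma adjusted p = 4.23e-14). Under CSC, BaP and NNK every FAT1 well again lay below every GFP well, and over the 4 chemicals the ratio of means was 0.598 to 0.670. PKM, the last enzyme of the pathway, read 302, 282 and 254 CPM against 454, 485 and 515, which gave a log2 difference of -0.74 (SE 0.08, adjusted p = 8.37e-14), and was below GFP in all wells under all 4 chemicals. ENO1 was lower with a log2 difference of -0.39 (SE 0.04, adjusted p = 8.18e-14), with wells at 1712, 1813 and 1693 CPM against 2337, 2414 and 2362. GPI, the phosphoglucose isomerase, was lower at -0.57 (SE 0.12, adjusted p = 1.31e-04).

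Other enzymes of the same cells were higher. ALDOC, an aldolase otherwise known from brain, read 31.7, 28.3 and 30.9 CPM in FAT1 wells against 6.71, 9.14 and 13.2 in GFP wells. Its log2 fold change was 1.68 (SE 0.27, adjusted p = 7.30e-07), and FAT1 wells lay above GFP wells under all 4 chemicals. LDHB was higher at 0.47 (SE 0.04, adjusted p = 7.01e-18). TPI1 was higher at 0.38 (SE 0.06, adjusted p = 7.00e-07), with wells at 771, 733 and 713 CPM against 564, 577 and 629. GAPDH was higher at 0.21 (SE 0.03, adjusted p = 5.30e-08). TPI1, GAPDH and PGK1 catalyse consecutive steps, and the first 2 were higher while the last was lower.

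The remaining 3 calls depended on single wells and on the method. None of the 3 passed by DESeq2. LDHA and ERO1L were also lost without the filter on counts and with all wells thinned to the smallest library. Median-ratio scaling ended the call on LDHA as well, and edgeR that on ERO1L. LDHA was lower at -0.16 (SE 0.05, adjusted p = 0.0278) and no longer passed without GFP replicate 1, 2 or 3 or FAT1 replicate 1 or 3, with log2 fold changes of -0.19, -0.13, -0.13, -0.14 and -0.11. PFKP, a phosphofructokinase, was lower at -0.88 (SE 0.26, adjusted p = 0.0120) and was lost without GFP replicate 2 or FAT1 replicate 1, at -0.68 and -0.84. ERO1L, an oxidase of the endoplasmic reticulum, was lower at -0.84 (SE 0.29, adjusted p = 0.0391) and was lost without GFP replicate 1 or 2 or FAT1 replicate 1, at -0.81, -0.70 and -0.34, and with the replicate number as a block (adjusted p = 0.0655), which in turn put CA12 past the threshold (-2.05, adjusted p = 0.0453). In a fit over all 4 chemicals 17 of the genes passed, where 33.1% of all genes did, and CA12, VEGFA, HK1, PFKM, BNIP3 and ENO2 joined those above. There CA12, a membrane carbonic anhydrase, was lower at -1.53 (SE 0.36, adjusted p = 4.48e-04) and VEGFA at -1.005 (SE 0.24, adjusted p = 4.37e-04), while PFKM, a muscle-type phosphofructokinase, was higher at 0.79 (SE 0.16, adjusted p = 6.04e-05).

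In CDKN2A cells 6 abundant enzymes and BNIP3L were lower, ALDOC was higher, and PGK1 and LDHA did not pass. CDKN2A encodes the cell cycle inhibitor p16 and the p53 regulator ARF. Of 33 genes tested against GFP, 8 passed, 1 higher and 7 lower, or 24.2% where 17.9% of all genes passed (8.64% higher and 9.22% lower), and 7 of the 9 above a mean count of 100 passed where 47.9% of that class did. The median log2 fold change was -0.16, against 0.03 for all genes. Scaling by the library total alone moved the median of all genes by 0.10, the largest such shift among the 10 comparisons, and moved none of these 8 genes to the other direction.

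GAPDH read 2039, 1958 and 1864 CPM in CDKN2A wells against 3247, 3121 and 3209 in GFP wells, which gave a log2 difference of -0.82 (SE 0.08, adjusted p = 1.16e-14), and was the lowest of all 8 populations. TPI1 read 373, 382 and 334 CPM against 564, 577 and 629, which gave a log2 difference of -0.81 (SE 0.11, adjusted p = 2.62e-09), and was likewise the lowest of the 8. With scaling by the library total alone these were -0.71 and -0.70. GPI was lower at -0.80 (SE 0.14, adjusted p = 7.86e-06) and PKM at -0.49 (SE 0.11, adjusted p = 4.95e-04). PGK1, by contrast, had a mean of 662 CPM (SD 25.7, n = 3) against 621 (SD 24.99, n = 3) and did not pass.

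The mitophagy receptor BNIP3L was lower in CDKN2A cells at -0.55 (SE 0.13, adjusted p = 5.15e-04). ALDOC, as in FAT1 cells, was higher, at 35.1, 30.96 and 33.1 CPM and a log2 difference of 1.65 (SE 0.29, adjusted p = 2.68e-06). The FAT1 and CDKN2A comparisons share the GFP wells, and GFP cells had the lowest ALDOC of the 8 populations, so the 2 values are not separate observations. LDHB was lower at -0.32 (SE 0.09, adjusted p = 0.00389) and was lost without GFP replicate 1 or 3, at -0.31 and -0.30. ENO1 was lower at -0.24 (SE 0.08, adjusted p = 0.0318) and was lost without GFP replicate 1, 2 or 3, at -0.22, -0.21 and -0.24, and by edgeR (adjusted p = 0.0984) and DESeq2 (adjusted p = 0.0939). With scaling by the library total alone, LDHB stood at -0.21 and ENO1 at -0.12, both past the threshold. HIF1A had its highest level in CDKN2A cells, at 8.93, 10.1 and 11.4 CPM against 5.13 to 8.31 in GFP wells, and the difference did not pass.

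The controls themselves differed, which bears on both sets of comparisons. Between GFP and HcRed cells 9 of 34 genes passed, 5 higher and 4 lower, or 26.5% where 10.8% of all genes passed (5.94% higher and 4.86% lower), and 7 of the 9 abundant ones where 47.4% of that class passed. LDHA was lower in GFP cells, at 1031, 1088 and 1094 CPM against 1540, 1439 and 1475, which gave a log2 difference of -0.42 (SE 0.04, adjusted p = 4.02e-11). LDHB was lower at -0.21 (SE 0.03, adjusted p = 5.42e-06) and ALDOC at -1.20 (SE 0.29, adjusted p = 0.00278). GAPDH and ENO1 were higher by 0.27 each (SE 0.03 and 0.03, adjusted p = 1.14e-11 and 7.49e-10), and BNIP3L by 0.54 (SE 0.08, adjusted p = 3.54e-06).

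The other 3 calls between the controls were lost without single wells. The hexokinase HK1 was lower in GFP cells at -1.14 (SE 0.34, adjusted p = 0.0221) and lost its call without HcRed replicate 2 or GFP replicate 1 or 3, at -1.12, -0.90 and -0.97. GPI was higher at 0.34 (SE 0.11, adjusted p = 0.0446), and lost its call without HcRed replicate 2 or 3 or GFP replicate 1, 2 or 3, at 0.39, 0.21, 0.32, 0.34 and 0.36. PKM was higher at 0.22 (SE 0.06, adjusted p = 0.0131), and lost its call without HcRed replicate 1 or 3 or GFP replicate 3, at 0.21, 0.21 and 0.18. GPI and PKM did not pass with scaling by the library total alone, which left 3 genes higher and 4 lower. HK1 and GPI lost their calls by DESeq2. GPI was also lost without the filter on counts and with thinned counts. Differences of FAT1 or CDKN2A cells from GFP are therefore differences from a control that itself departs from HcRed in these genes. The PKM mean of FAT1 cells, 279 CPM (SD 24.3, n = 3), lay below both controls, at 485 in GFP and 431 in HcRed cells, and so did PGK1 at 371 CPM against 621 and 617. The ALDOC mean of FAT1 cells, 30.3 CPM (SD 1.78, n = 3), lay above the HcRed wells of 18.0 to 27.9 by less than it lay above GFP. FAT1 cells were not tested against HcRed. In the fit of GFP against HcRed over 3 chemicals 14 genes passed, where 23.3% of all genes did.

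Each overexpression population gave fewer calls than the knockouts. All 4 are compared with the same 3 HcRed wells. PIK3CA, the catalytic subunit of a growth factor-activated lipid kinase, gave 4 genes of 34, all higher, or 11.8% where 5.4% of all genes passed (3.36% higher and 2.05% lower) and 25.7% of those with a mean count above 100. These were LDHA at 0.30 (SE 0.04, adjusted p = 1.36e-07), LDHB at 0.28 (SE 0.04, adjusted p = 1.99e-08), GAPDH at 0.21 (SE 0.03, adjusted p = 5.58e-06) and ENO1 at 0.16 (SE 0.04, adjusted p = 0.00109). Each of these calls held without any 1 well and under every other setting tried. With scaling by the library total alone 4 genes were higher and 1 lower, the last being PGK1 at -0.23 (adjusted p = 0.00306), against -0.17 (adjusted p = 0.0862) by the main limma fit. The ratio of LDHA means was 1.18 to 1.26 under DMSO, CSC and NNK, and every PIK3CA well lay above every HcRed well under all 3. SLC2A3, a high-affinity glucose transporter, had a mean of 3.84 CPM (SD 2.04, n = 3) in PIK3CA cells against 1.09 (SD 0.945, n = 3) under DMSO and did not pass there. In the fit over 3 chemicals it was higher at 2.05 (SE 0.37, adjusted p = 2.85e-05), as 1 of 8 genes that passed where 13.2% of all genes did.

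NRF2, the master regulator of antioxidant genes, gave 4 genes of 34, 2 higher and 2 lower, or 11.8% where 4.91% of all genes passed (3.39% higher and 1.52% lower) and 26.9% of the abundant class. LDHB was higher at 0.24 (SE 0.03, adjusted p = 4.06e-08), and its NRF2 wells lay above HcRed wells under DMSO, CSC and NNK. PFKP was lower, at 12.6, 15.0 and 13.4 CPM against 29.1, 38.2 and 25.6, which gave a log2 difference of -1.06 (SE 0.23, adjusted p = 0.00102). Its NRF2 wells lay below HcRed wells under DMSO and CSC but overlapped them under NNK, with ratios of means of 0.441 to 0.942. DESeq2 gave PFKP a value of -1.09 with no adjusted p, so that call was lost. ENO1 was higher at 0.14 (SE 0.03, adjusted p = 0.00373) but lost its call without NRF2 replicate 3 (0.11) and with scaling by the library total alone (0.04, adjusted p = 0.414), which moved the median of all genes by -0.10. That scaling gave 1 higher and 3 lower genes, with GAPDH lower at -0.09 (adjusted p = 0.0174). PKM was lower at -0.23 (SE 0.07, adjusted p = 0.0336) and lost its call without HcRed replicate 1 or 2 or NRF2 replicate 2 or 3, at -0.23, -0.20, -0.22 and -0.17. Without NRF2 replicate 3, 2 genes passed in place of 4.

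NRG1, a ligand of ERBB receptors, gave 2 genes of 34, both higher, or 5.88% where 3.08% of all genes passed (2.08% higher and 0.998% lower) and 17.1% of the abundant class. They were GAPDH at 0.18 (SE 0.03, adjusted p = 2.86e-07) and LDHB at 0.19 (SE 0.03, adjusted p = 2.41e-06). Scaled by the library total alone, 2 were higher and 2 lower, the lower ones being LDHA at -0.18 (adjusted p = 1.09e-04) and PKM at -0.25 (adjusted p = 0.00698). LDHA of NRG1 cells lay below HcRed in every well under both DMSO and NNK. In the limma fit that added NNK wells neither passed (adjusted p = 0.979 and 0.986), where 0.422% of all genes did, and with NRG1 NNK replicate 2 left out of that fit 5 genes passed, GAPDH and LDHB among them, where 4.43% of all genes did. FGFR1, a fibroblast growth factor receptor, gave 0 of 34 genes by limma, edgeR and DESeq2, where 0.914% of all genes passed by limma (0.501% higher and 0.413% lower) and 2.56% of the abundant class, and 4 at an unadjusted p under 0.05. With scaling by the library total alone 2 passed, GAPDH higher at 0.25 and ENO1 lower at -0.17. Without FGFR1 replicate 3, 3 genes passed, and without HcRed replicate 1, 1 gene passed. In the fit with NNK wells, where 3.29% of all genes passed, GAPDH was the 1 gene that did, higher in FGFR1 cells at 0.29 (SE 0.04, adjusted p = 4.30e-07).

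**Figure D2:**
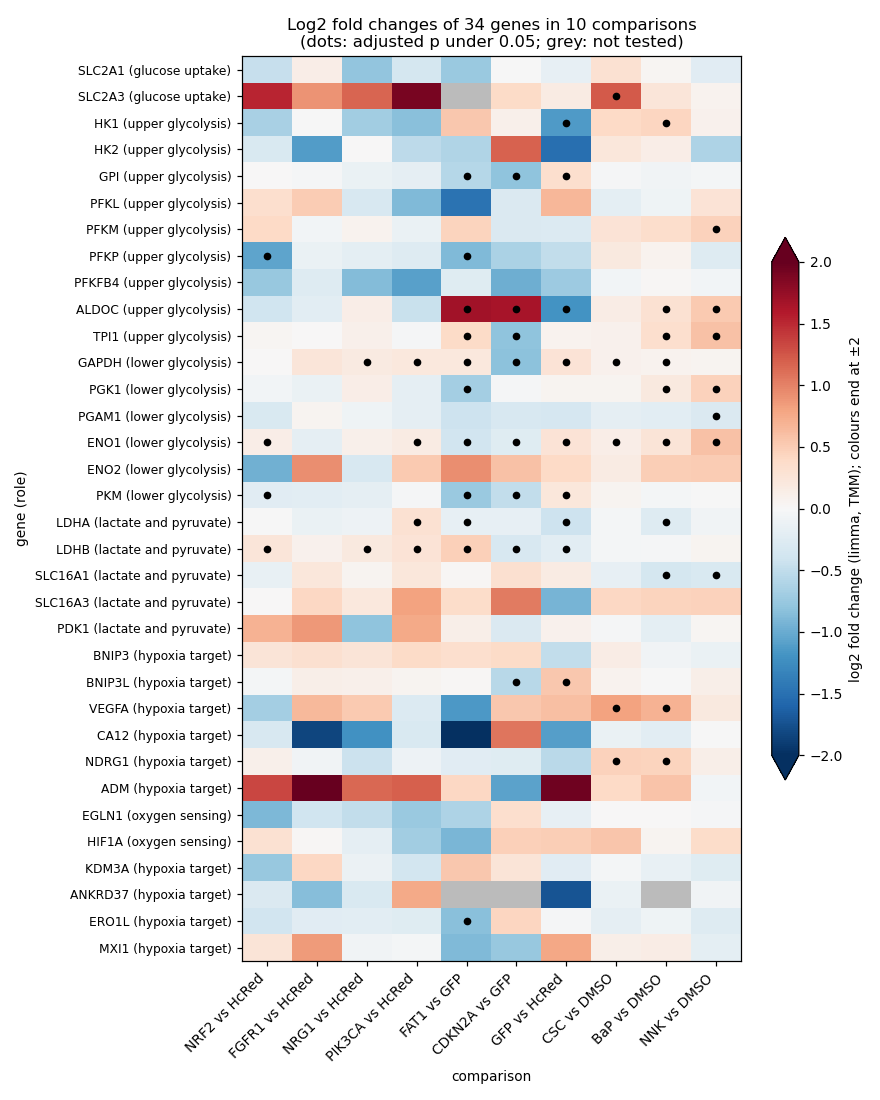
Limma log2 fold changes of the 34 genes (rows, with their roles) in 10 comparisons (columns), red for higher and blue for lower in the first-named group, with dots where the adjusted p was under 0.05 and grey where a gene was not tested. Dots gather on the abundant enzymes, and FGFR1 against HcRed has none.

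Among the chemicals, the largest changes of abundant enzymes were seen under NNK. NNK is a nitrosamine that cells convert to DNA-reactive forms. Over 7 populations, 7 of 34 genes passed, 5 higher and 2 lower, or 20.6% where 7.22% of all genes passed (3.07% higher and 4.15% lower), and 3 of the 9 abundant ones where 14.1% of that class passed. The median log2 fold change of the 34 genes was 0.02, against -0.01 for all genes, with members moving both ways.

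ENO1 ran from 2485 to 3798 CPM under NNK with a median of 2919 over 21 wells, and from 1693 to 2414 with a median of 2069 under DMSO. Within each of the 7 populations all NNK wells lay above all DMSO wells, and the ratio of means was 1.35 to 1.60. The log2 fold change was 0.59 (SE 0.05, adjusted p = 8.26e-18). TPI1 ran from 710 to 1237 CPM, median 829, against 533 to 771, median 577, and was also separated in 7 of 7 populations, at 0.58 (SE 0.05, adjusted p = 3.31e-17). The highest TPI1 wells, at 1216 to 1237 CPM, were the 3 of FAT1 cells under NNK. PGK1 rose by 0.46 (SE 0.06, adjusted p = 6.10e-10) and was separated in 6 of 7 populations. In the seventh, NRG1 cells, replicate 2 read 607 CPM under NNK while the other NNK wells read 848 and 898 and the DMSO wells 642 to 653.

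The other genes with a mean count above 100 did not pass. GAPDH, the step between TPI1 and PGK1, had a log2 difference of 0.06 (SE 0.05, adjusted p = 0.533), PKM of -0.01 (SE 0.05, adjusted p = 0.911) and LDHA of -0.08 (SE 0.05, adjusted p = 0.395). LDHA was nonetheless lower on average in 7 of 7 populations, with ratios of 0.875 to 0.962 and all wells below in 3, and with scaling by the library total alone it passed at -0.13 (adjusted p = 2.71e-05), giving 5 higher and 3 lower genes. ALDOC rose by 0.52 (SE 0.11, adjusted p = 2.52e-04) and PFKM by 0.46 (SE 0.11, adjusted p = 0.00367), each higher on average in 7 of 7 populations. SLC16A1, a lactate transporter, fell by 0.30 on the log2 scale (SE 0.08, adjusted p = 0.0130), and PGAM1, the phosphoglycerate mutase, fell by 0.28 (SE 0.09, adjusted p = 0.0383), each lower on average in 6 of 7. For SLC16A1 the exception was NRG1 cells, with a ratio of means of 1.22. Their replicate 2 read 63.1 CPM under NNK, and the other wells 27.1 and 23.1. Leaving out all wells numbered 1 removed the calls on ALDOC (0.41), PFKM (0.34), SLC16A1 (-0.21) and PGAM1 (-0.28). SLC16A1 was also lost without the wells numbered 3 (-0.27) and PGAM1 without those numbered 2 or 3 (-0.29 and -0.26). Leaving out FGFR1, GFP, HcRed or PIK3CA cells ended both of these calls. Leaving out FAT1 cells ended that on SLC16A1, and leaving out NRF2 cells that on PGAM1. With median-ratio scaling PGAM1 stood at -0.26 (adjusted p = 0.0689), leaving 5 higher and 1 lower. PGAM1 was also lost by DESeq2, without the filter on counts and with thinned counts.

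The library NRG1 NNK replicate 2 mattered for these counts. Without it 12 genes passed, where 19.9% of all genes did, and ENO1, TPI1 and PGK1 stood at 0.63 (SE 0.02, adjusted p = 6.51e-44), 0.63 (SE 0.03, adjusted p = 4.89e-34) and 0.52 (SE 0.03, adjusted p = 5.31e-31). GAPDH was then higher at 0.10 (SE 0.02, adjusted p = 7.19e-06) and LDHB at 0.11 (SE 0.02, adjusted p = 5.83e-06). In that well HIF1A read 18.3 CPM, EGLN1 28.5, VEGFA 21.02 and NDRG1 29.2, the highest of the 82 wells for all 4, while the other wells of its group read 8.14 and 5.78 for HIF1A and 3.39 and 4.96 for VEGFA.

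Under BaP the same 3 enzymes were higher and LDHA was lower. Over 5 populations, 10 of 33 genes passed, 8 higher and 2 lower, or 30.3% where 9.16% of all genes passed (5.04% higher and 4.12% lower), and 5 of the 9 abundant ones where 34.2% of that class passed. TPI1 rose by 0.33 (SE 0.02, adjusted p = 8.52e-18), from a median of 574 to 725 CPM over 15 wells each. ENO1 rose by 0.25 (SE 0.02, adjusted p = 5.96e-19) and PGK1 by 0.20 (SE 0.03, adjusted p = 2.67e-08). For all 3 genes the BaP wells lay above the DMSO wells in 5 of 5 populations. The BaP and NNK comparisons share DMSO wells, so the 2 sets of values are not independent. BaP and NNK wells also had the barcodes richest in G and C, which cannot be told apart from the chemicals.

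LDHA fell by 0.26 on the log2 scale (SE 0.02, adjusted p = 6.44e-16), and every BaP well lay below every DMSO well in 5 of 5 populations, with ratios of means of 0.780 to 0.845. Its 15 BaP wells ran from 731 to 1426 CPM with a median of 1103, against 854 to 1801 and a median of 1304 under DMSO. LDHB had a log2 difference of -0.02 (SE 0.02, adjusted p = 0.558). The ratio of LDHA to LDHB counts was lower under BaP in 5 of 5 populations, from 0.609 (SD 0.0209, n = 3) to 0.506 (SD 0.0173, n = 3) in GFP cells, for example. All BaP wells lay below all DMSO wells in 4 of these 5. Under NNK the mean ratio was lower in 7 of 7 populations, with the wells separated in 4.

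SLC16A1 was lower under BaP with a log2 difference of -0.36 (SE 0.09, adjusted p = 0.00575). GAPDH was higher at 0.07 (SE 0.02, adjusted p = 0.0130), NDRG1 at 0.44 (SE 0.14, adjusted p = 0.0277), VEGFA at 0.69 (SE 0.23, adjusted p = 0.0442), ALDOC at 0.30 (SE 0.10, adjusted p = 0.0445) and HK1 at 0.43 (SE 0.15, adjusted p = 0.0448). Each of these 6 calls was lost with 1 number left out, and each also with at least 1 population left out. DESeq2 ended the calls on ALDOC, HK1 and VEGFA. By edgeR, HK1 (adjusted p = 0.0577) and GAPDH (adjusted p = 0.0594) did not pass. Without the filter on counts GAPDH, HK1, VEGFA and ALDOC did not pass, and with thinned counts ALDOC and VEGFA did not. ALDOC and HK1 lost theirs without the wells numbered 1, 2 or 3, ALDOC at 0.22, 0.30 and 0.36 and HK1 at 0.32, 0.48 and 0.49. NDRG1 lost its call without number 2 or 3 (0.32 and 0.41), VEGFA likewise (0.72 and 0.55), SLC16A1 without 1 or 2 (-0.33 and -0.31) and GAPDH without 2 (0.04). Scaling by the library total alone ended the calls on GAPDH (0.03, adjusted p = 0.306), HK1 (0.40, adjusted p = 0.0694), VEGFA (0.66, adjusted p = 0.0578) and ALDOC (0.26, adjusted p = 0.0822) and put LDHB past the threshold at -0.06 (adjusted p = 0.00633), so 4 genes were higher and 3 lower. A limma fit of all BaP and DMSO wells of the 8 populations added HcRed, FGFR1 and CDKN2A cells, with their 1-digit and 2-digit wells. There HK1 stood at 0.11 (adjusted p = 0.639) and VEGFA at 0.27 (adjusted p = 0.440).

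**Figure D3:**
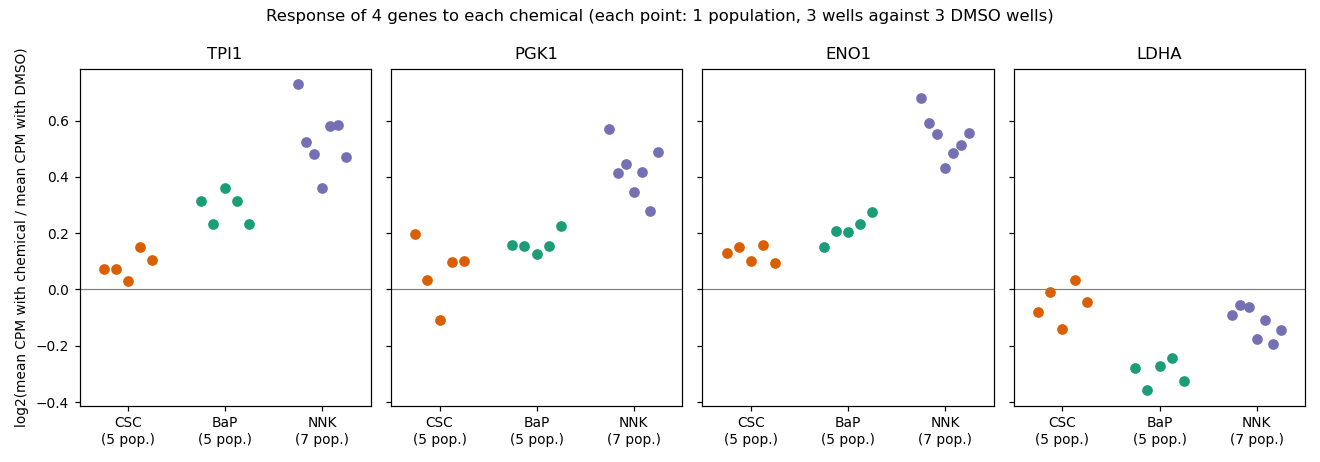
Log2 ratio of mean CPM with a chemical to mean CPM with DMSO (vertical axis) for TPI1, PGK1, ENO1 and LDHA, with 1 point per population (5 under CSC, 5 under BaP, 7 under NNK). TPI1 and ENO1 lie above 0 in all populations and highest under NNK, and LDHA lies lowest under BaP.

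CSC, a mixture of the particulate phase of smoke, gave calls on SLC2A3, VEGFA, NDRG1, ENO1 and GAPDH. Of 34 genes, 5 passed, all higher, or 14.7% where 5.81% of all genes passed (2.95% higher and 2.86% lower). By role, 2 of 10 hypoxia targets, 2 of 6 lower glycolytic genes and 1 of 2 glucose transporters passed, and 0 of 9 upper glycolytic genes did. ENO1 and GAPDH had a mean count above 100, a class in which 22.7% of genes passed. SLC2A3 ran from 0 to 12.05 CPM under CSC with a median of 4.31, and from 0 to 5.37 with a median of 1.52 under DMSO. Its log2 fold change was 1.23 (SE 0.27, adjusted p = 8.86e-04). The wells were separated in NRF2 cells (5.39, 12.05 and 4.40 CPM under CSC) and PIK3CA cells (11.2, 10.4 and 8.66), and overlapped in the other 3 populations, where GFP cells had the lower mean under CSC. With all wells thinned to the smallest library the limma value was 0.86 (adjusted p = 0.105), and without PIK3CA cells it was 1.09 (adjusted p = 0.0520).

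VEGFA was higher under CSC in 5 of 5 populations, with a median of 4.72 CPM against 2.32 and a log2 difference of 0.81 (SE 0.22, adjusted p = 0.0145). NDRG1, a stress-induced gene, was also higher in 5 of 5, with a median of 16.2 CPM against 10.8 and a log2 difference of 0.46 (SE 0.13, adjusted p = 0.0154). Wells were separated in 2 of 5 populations for each gene. VEGFA lost its call without the wells numbered 1 or 3 (0.80 and 0.57) and with thinning (0.69), and NDRG1 without those numbered 2 or 3 (0.47 and 0.36). Leaving out FAT1 or HcRed cells also ended the VEGFA call (0.70 and 0.74). Leaving out GFP or PIK3CA cells ended the NDRG1 call (0.41 and 0.38). ENO1 rose by 0.13 (SE 0.02, adjusted p = 3.79e-07), with CSC wells above DMSO wells in 5 of 5 populations, and GAPDH by 0.09 (SE 0.02, adjusted p = 7.04e-05). TPI1 also passed with scaling by the library total alone. HIF1A itself had a log2 difference of 0.55 (SE 0.20, adjusted p = 0.102), and TPI1 by the main fit one of 0.08 (SE 0.03, adjusted p = 0.0549).

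**Figure D4:**
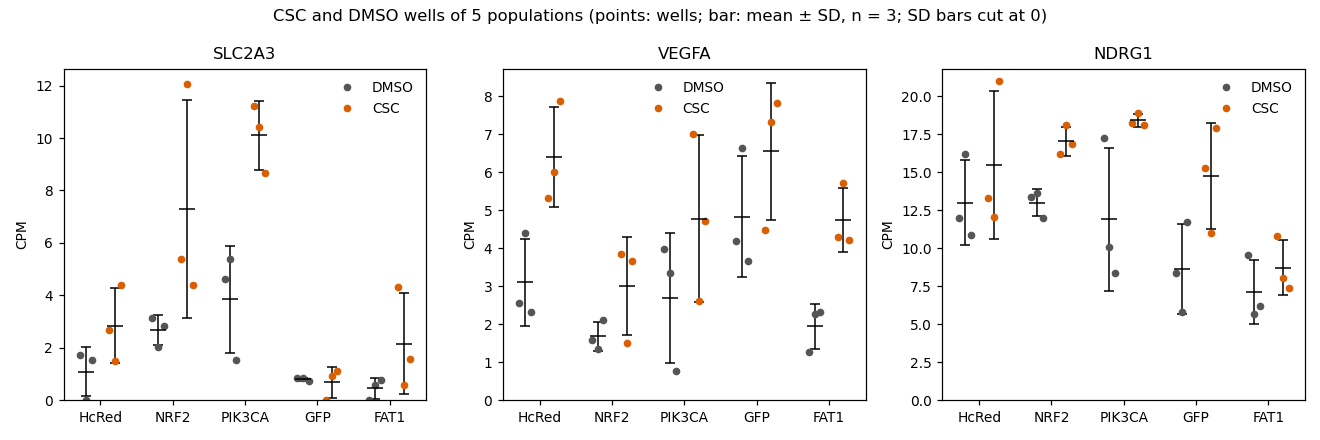
CPM (vertical axes, from 0) of SLC2A3, VEGFA and NDRG1 in DMSO (grey) and CSC (orange) wells of 5 populations, with the mean and SD of 3 wells. CSC wells of SLC2A3 reach 12.05 CPM in NRF2 cells and 11.2 in PIK3CA cells and stay at or below 1.12 in GFP cells.

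Whether the responses differed between populations was tested by chemical-by-population terms. For CSC, BaP and NNK, 0 of 34, 0 of 33 and 0 of 34 genes passed (limma-voom moderated F), where 0.106%, 0.106% and 0.0176% of all genes and 0.735%, 0.884% and 0.0751% of those with a mean count above 100 passed. In these tests 0, 2 and 4 of the genes had an unadjusted p under 0.05. Without NRG1 NNK replicate 2, 0 genes passed for NNK as well. No difference in response between populations was therefore detected for these genes, including SLC2A3 under CSC, at 3 wells a group.

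Other genes of the same pathways were taken from a second list, of which 71 of the 90 in the tables had a mean count above 1. Under CSC, 10 of 69 tested passed, 9 higher and 1 lower, or 14.5% where 5.81% of all genes did. The lower gene was TXNIP, an inhibitor of glucose uptake, at -0.75 (SE 0.08, adjusted p = 1.90e-12). ANGPTL4, a secreted lipase inhibitor induced by hypoxia, rose by 2.09 (SE 0.37, adjusted p = 2.05e-05), DDIT4, an mTOR inhibitor, by 0.67 (SE 0.12, adjusted p = 1.76e-05) and the transferrin receptor TFRC by 0.54 (SE 0.08, adjusted p = 7.89e-07). The mean count of ANGPTL4 over the 82 wells was 1.16, just above the required 1. Under BaP 6 of 69 passed, or 8.7%, near the 9.16% of all genes, with DDIT4 at 0.59 (SE 0.11, adjusted p = 3.42e-05) and the adenylate kinase AK4 at -0.46 (SE 0.10, adjusted p = 8.00e-04). Under NNK 6 of 69 passed, 4 higher and 2 lower, or 8.7% where 7.22% of all genes did. DDIT4 rose there by 0.69 (SE 0.10, adjusted p = 2.93e-07), BHLHE40, a hypoxia-inducible repressor, by 0.58 (SE 0.11, adjusted p = 3.94e-05) and the collagen prolyl hydroxylase P4HA2 by 0.25 (SE 0.06, adjusted p = 0.00102). DDIT3, a stress-response factor, was lower at -0.33 (SE 0.09, adjusted p = 0.00675). These NNK values are from the fit with NRG1 NNK replicate 2, and 19.9% of all genes passed without it. The second list was not counted without that library.

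In CDKN2A cells 16 of 65 genes of the second list passed, 11 higher and 5 lower, or 24.6% where 17.9% of all genes did. TFRC was higher at 1.84 (SE 0.21, adjusted p = 4.27e-12), MYC at 1.78 (SE 0.39, adjusted p = 2.17e-04) and the collagen-modifying enzyme PLOD2 at 1.47 (SE 0.23, adjusted p = 3.12e-07), and TXNIP was lower at -1.07 (SE 0.14, adjusted p = 1.24e-09). In FAT1 cells 13 of 67 passed, 7 higher and 6 lower, or 19.4% where 14.1% of all genes did, among them PDHA1, a subunit of pyruvate dehydrogenase, at -0.99 (SE 0.11, adjusted p = 9.46e-12). In PIK3CA cells TXNIP was lower at -1.28 (SE 0.16, adjusted p = 3.14e-09), and TFRC and ALDOA, the main aldolase, were higher at 0.73 (SE 0.18, adjusted p = 0.00504) and 0.36 (SE 0.09, adjusted p = 0.00621), the 3 genes of 67 that passed (4.48%, where 5.4% of all genes did). In NRF2 cells 3 of 65 passed (4.62%, where 4.91% of all genes did), with TFRC at 0.75 and TXNIP at -0.60, and in FGFR1 and NRG1 cells 1 of 68 each (1.47%, where 0.914% and 3.08% of all genes did), DDIT3 at 1.09 and 0.55. GFP and HcRed cells differed in 11 of 66 (16.7%, where 10.8% of all genes did), and TXNIP was higher in GFP cells at 0.90 (SE 0.12, adjusted p = 2.67e-07).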

How the data were processed

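Per the labels and the study's methods, the authors aligned 3′DGE reads to RefSeq hg19 transcripts with BWA (version 0.7.10 in the submitters' processing notes) and deposited UMI counts per gene and well, with no normalization. Enzymes with many processed pseudogenes, such as GAPDH, may share reads with them. Genes with a mean count above 1 in the wells fitted were tested with limma-voom (limma 3.58.1, TMM factors from edgeR 4.0.16, R 4.3.3), two-sided, with Benjamini-Hochberg adjustment over all genes and a threshold of 0.05. Populations were compared under DMSO, and each chemical with DMSO over the populations that had 3 wells of both, with population as a covariate. F tests compared weighted fits with and without the terms tested. Variances were strongly shared across genes. The 13 wells with 2-digit replicate numbers were kept out, since the labels do not say whether they are separate cultures. CPM used each well's total.

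The members and lists were chosen with earlier results of these data known. Members past the threshold are named, up to 12 a comparison, with up to 4 genes of the second list by smallest adjusted p. Alternatives were DESeq2 1.42.0, edgeR's quasi-likelihood test, median-ratio scaling, no filter on counts, thinned counts, a replicate block, other sets of wells and single wells, numbers or populations left out. Scaling by the library total alone and one fit without NRG1 NNK replicate 2 were added after seeing the data. The test scripts were tested on simulated data.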

Additional observations from a re-analysis of the deposited data

Results flagged for a closer look

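The wells with 2-digit replicate numbers entered no comparison of the main analysis. For each group, genes that had passed the test of that chemical were counted if every 2-digit well lay beyond all DMSO wells of the same population, in the direction of the test. These are values with no test. Beside each count stands the share of all genes past the test of that chemical for which the same held.

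In CDKN2A cells under NNK this held for 6 of 7 genes in 2 wells, and for 65.1% of all genes past the test (27.6% of all genes tested). ENO1 averaged 3507 CPM there against 2171 under DMSO, TPI1 657 against 363, and PGK1 977 against 662, while PFKM overlapped. In CDKN2A cells under CSC it held for 3 of 5 genes in 3 wells, which were ENO1, GAPDH and SLC2A3, the last at 5.04 CPM against 1.49, and for 41.6% of all genes past the test (11% of all genes tested).

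In FGFR1 cells under BaP it held for 5 of 10 genes in 2 wells, with LDHA at 1040 CPM against 1359 and TPI1 at 733 against 593, and for 53.8% of all genes past the test (21.3% of all genes tested). In HcRed cells under BaP it held for 5 of 10 genes in 2 wells, with LDHA at 1067 CPM against 1485, and for 49.4% of all genes past the test (19.1% of all genes tested). HK1 lay below the HcRed DMSO wells there, at 8.47 CPM against 14.9, opposite to its test. Under CSC it held for 2 of 5 genes in FGFR1 cells (ENO1 and GAPDH) and for 2 of 5 in NRG1 cells (ENO1 and VEGFA), in 2 wells each. The shares of all genes past the test were 49.8% and 61.6% (17.4% and 18.5% of all genes tested).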

How the results depend on the processing

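Of 60 calls on single genes, 34 passed under every alternative tried for them. Over 899 gene values, 759 kept their side of the threshold, 140 lost it and 0 changed sign. Of 190 counts of genes, 165 stayed within 1.5 times. Fits over all chemicals gave 17 genes for FAT1, 14 in GFP against HcRed, 8 for PIK3CA, 7 for NRF2, 1 for FGFR1 and 0 for NRG1 (5 without NRG1 NNK replicate 2, added after seeing the data). In that order, the shares of all genes that passed were 33.1%, 23.3%, 13.2%, 10.7%, 3.29% and 0.422% (4.43% without that library). The counts that follow are given without the share of all genes at each setting. They may move with that share and are not results about these genes alone. Scaling by the library total alone, also added later, gave 2 genes for FGFR1 and 4 for NRG1. CSC gave 3 genes with thinned counts, 3 without PIK3CA cells and 9 with all wells of 8 populations. BaP gave 6 without the filter on counts, 5 without FAT1, 5 without GFP, 6 without NRG1 and 5 without PIK3CA cells. NNK gave 13 without NRG1 cells. Leaving out 1 well gave 8 to 11 genes for FAT1, 6 to 9 for CDKN2A, 6 to 8 in GFP against HcRed, 2 to 4 for NRF2, 2 to 3 with NRG1 and 0 to 3 with FGFR1. Leaving out 1 replicate number gave 14 to 19 genes among the 8 populations, 4 to 5 for CSC, 4 to 7 for BaP and, with NRG1 NNK replicate 2 also left out alone, 3 to 12 for NNK. The cause of these shifts was not tested, beyond the change in wells or genes fitted. Under DMSO, each well's deviation from its group mean was correlated across genes with that of the same-numbered well of the population compared. The correlations were -0.115 to 0.103. They were all above 0 for CDKN2A against GFP (0.0146 to 0.103) and NRF2 against HcRed (0.0189 to 0.0299), and of both signs for the others. Low values cannot exclude a weak pairing. The numbers were not taken to pair wells in the main tests. Wells under the chemicals were not checked in this way. A replicate block gave the same counts of genes (21 among the 8 populations, 11 for FAT1, 10 with BaP, 9 in GFP against HcRed, 8 for CDKN2A, 7 with NNK, 5 with CSC, 4 each for PIK3CA and NRF2, 2 for NRG1, 0 for FGFR1), and 59 of the 60 calls held. In FAT1 cells ERO1L was lost and CA12 gained. For 14 genes the mean count was under 10.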
